A study of Mus musculus with 12 samples.

Results

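Insulin acts on the liver through a short chain of proteins, and 8 genes of that chain are described here: Insr, which encodes the insulin receptor, Irs1 and Irs2, which encode its main substrates, Pik3r1, which encodes the p85α regulatory subunit of phosphoinositide 3-kinase (PI3K), Akt1 and Akt2, which encode the kinases that PI3K switches on, and Foxo1 and Foxo3, which encode transcription factors that Akt restrains. The genes were taken by symbol for their place in the pathway, without use of their values. All 8 were present among the 21705 genes of the table, and all 8 passed the filter on low values. None of them differed between LNA29-treated and saline-treated livers by more than the livers of a group differed among themselves.

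The livers came from C57BL/6J female mice, 10 to 12 weeks old, dosed through the tail vein with saline (n = 6) or with LNA29 (n = 6). LNA29 is a pair of locked nucleic acids, short modified oligonucleotides that bind a microRNA (miRNA) and block it, of which 1 is directed at miR-29a and 1 at miR-29b and miR-29c, and each was given at 20 mg/kg. In both groups the liver was taken 7 days after dosing and after 18 h without food, so every value refers to the fasted liver. Saline was the only control among these 12 livers, so the loss of miR-29 and the presence of an oligonucleotide cannot be told apart.

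When insulin binds its receptor, the receptor phosphorylates the IRS proteins, which recruit PI3K to the membrane, and the lipid that PI3K makes there brings Akt to the kinases that activate it. Akt then phosphorylates the FoxO factors, which leave the nucleus. In the fasted liver, where insulin is low, FoxO factors stay nuclear and switch on genes of glucose production, and they also raise Irs2, whereas insulin after a meal switches on genes of glycolysis and fatty acid synthesis. Most of this control is exerted by phosphorylation and localisation, which mRNA levels do not measure.

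The miRNAs that LNA29 binds have one seed in common. The seed, bases 2 to 8 from the 5′ end, pairs with target mRNAs and is set in capitals in the mature sequences (RefSeq, GRCm38.p6), shown because the target sites below are its complement.
mmu-miR-29a-3p: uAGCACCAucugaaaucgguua
mmu-miR-29b-3p: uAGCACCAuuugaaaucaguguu
mmu-miR-29c-3p: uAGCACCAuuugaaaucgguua
The mature miR-29a lies at chr6:31062673-31062694 on the minus strand and miR-29c at chr1:195037600-195037621 on the plus strand. A pair of genes encodes miR-29b, at chr6:31063025-31063047 on the minus strand and at chr1:195037091-195037113 on the plus strand. All 4 hairpin genes were listed in the table with 0 reads in each of the 12 livers. Mature miRNAs are not captured by libraries of polyadenylated RNA, so the degree of miR-29 inhibition was not checked on these values.

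The complement of the seed, TGGTGCT, was searched on the mRNA strand of the longest 3′ untranslated region (3′ UTR) of each gene in GENCODE release M21, build GRCm38. It occurred once in Irs1, Pik3r1, Foxo1 and Foxo3 and was not in the annotated 3′ UTRs of Insr, Irs2, Akt1 and Akt2. These 4 matches are shown with the match in capitals and 29 bases in all, because they are the places where miR-29 could pair with the mRNAs of the pathway genes.
Irs1: atctgaagatggTGGTGCTatcgacggtg
Pik3r1: ggcctttaaccaTGGTGCTtgttaacgct
Foxo1: aagaatggctgaTGGTGCTggcattcctc
Foxo3: tccaaaaagttaTGGTGCTgtataggtgc
The match in Irs1 was at chr1:82233374-82233380 on the minus strand, in exon 2 of 2, at base 4246 of the 3′ UTR. In Pik3r1 it was at chr13:101684503-101684509 on the minus strand, in exon 16 of 16 and at base 371, near the stop codon. The Foxo1 match was at chr3:52352552-52352558 on the plus strand, in exon 3 of 3 and at base 5571. That of Foxo3 was at chr10:42185029-42185035 on the minus strand, in exon 4 of 4 and at base 1296. Only the Irs1 match was followed by an A, the base that lies opposite the first base of the miRNA and is a known feature of strong sites.

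A match to 7 bases is common in a long 3′ UTR. Of the 12127 tested genes with an annotated 3′ UTR, 16.8% held TGGTGCT and 3.46% held it followed by an A, at a median 3′ UTR length of 1320 bases. Of the 1033 tested genes whose 3′ UTR had at least 4000 bases, 46.7% held it and 11.8% held it followed by an A. The 3′ UTRs with a match had 4525 bases in Irs1, 4317 in Pik3r1, 6240 in Foxo1 and 4490 in Foxo3. Those without one had 4747 bases in Insr, 2685 in Akt2, 2329 in Irs2 and 877 in Akt1. Of the 5 pathway genes whose 3′ UTR was that long, 4 held a match.

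The reads assigned to genes numbered 8217218 to 19062438 in saline livers and 7696073 to 15079238 in LNA29 livers. The authors divided each library by its upper quartile and multiplied it by 1000, so a value of 1000 is that of a gene at the 75th percentile of the genes with reads, and 1 read was worth between 9.80 and 24.4. Albumin, the main secreted protein of hepatocytes, took between 35.7% and 46.9% of the reads. The liver with the lowest share was saline replicate 49, which had the lowest summed level of 5 hepatocyte genes. That sum includes albumin, so it is not a separate observation. The summed marker genes of macrophages lay between 6844 and 10186 in saline and between 5472 and 11452 in LNA29 livers, and those of lymphocytes between 350 and 870 and between 270 and 605. No marker gene on the lists, which also covered stellate cells, endothelium and bile duct, had a limma adjusted p under 0.05. Only 0.16% of all tested genes had one, so this does not show an even make-up of cells. In LNA29 livers 0 of 5 macrophage and 1 of 6 endothelial genes were higher, with median log2 differences of -0.27 and -0.24. Higher means were found for 4 of 5 hepatocyte, 3 of 5 bile duct, 2 of 6 stellate cell and 1 of 4 lymphocyte genes. Adipocyte markers had no reads in 9 of the 12 livers but summed to 827 in saline replicate 47 and to 888 in LNA29 replicate 52. Red blood cell markers summed to 17732 in LNA29 replicate 52, above the 2158 to 8746 of the other livers. In whole liver, fewer cells of a type and less RNA per cell cannot be told apart.

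Among the 8 genes, 0 had an adjusted p under 0.05 in limma, with a smallest value of 0.868 for Insr, and 0 had an unadjusted p under 0.05. For comparison, 0.16% of the 12486 tested genes had an adjusted p under 0.05 in limma. Unadjusted, 1.95% were higher and 5.97% lower in LNA29 livers. On the recovered reads, edgeR and DESeq2 also gave 0 adjusted and 0 unadjusted calls among the 8 genes, with smallest adjusted p-values of 0.917 in edgeR and 0.949 in DESeq2. The 2 groups overlapped for every one of the 8, and over all tested genes 0.985% did not overlap. At such shares a count of 0 among 8 genes does not set them apart from the rest of the table.

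On the log2(value + 1) scale, 5 of the 8 genes had a higher mean and 3 a lower mean in LNA29 livers, with a median difference of 0.067. In edgeR and in DESeq2, 4 of the 8 were higher. The median of all tested genes was -0.093, with 38.6% of them higher. What the data do give is the range of differences that remain possible for each gene. That range was narrow for Akt1 and Akt2 and very wide for Irs2.

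**Figure D1:**
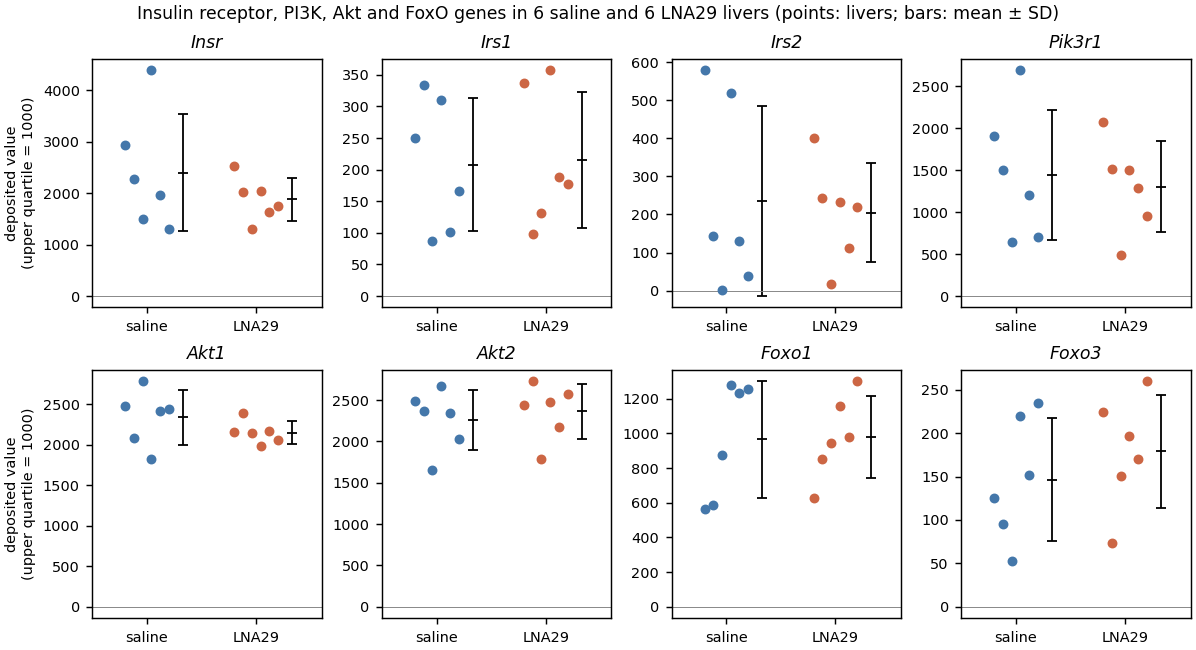
Deposited value of each of the 8 genes (vertical axis, scaled to an upper quartile of 1000) in 6 saline and 6 LNA29 livers, with each point a liver and each bar the mean ± SD of a group. The groups overlap in all 8 panels, the saline livers of Insr span 1314 to 4390, and Akt1 and Akt2 are the least spread.

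The insulin receptor gene Insr (Entrez 16337, chr8:3122061-3279617, minus strand) had at least 69 reads in every liver and was among the better measured of the 8. In saline livers its value ran from 1314 to 4390 with a median of 2123, on 86 to 439 reads. LNA29 livers ran from 1302 to 2525 with a median of 1889, on 69 to 202 reads. The highest value was that of saline replicate 49, followed by saline replicate 43, and 5 of the 6 LNA29 livers lay inside the saline range. The means were 2399 ± 1134 in saline and 1880 ± 417 in LNA29 livers (SD, n = 6 each). The log2 difference was -0.26 (standard error 0.25, limma adjusted p = 0.868, exact permutation p = 0.409), with a 95% interval from 0.582-fold to 1.20-fold. Without saline replicate 49 the log2 difference was -0.060.

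Irs1 (Entrez 16367, chr1:82233101-82291416, minus strand) and Irs2 (Entrez 384783, chr8:10984681-11008458, minus strand) encode the docking proteins that carry the signal from the receptor to PI3K, and both were measured on few reads. Irs1 lay between 87.7 and 333 in saline livers (median 208, 5 to 31 reads) and between 97.6 and 357 in LNA29 livers (median 183, 4 to 27 reads). High and low livers occurred in both groups, with saline replicates 45 and 49 at 333 and 310, and LNA29 replicates 50 and 44 at 357 and 337.5. The means of Irs1 were 208 ± 105 and 215 ± 108, a log2 difference of 0.075 (standard error 0.40, limma adjusted p = 0.981, exact permutation p = 0.864). At these read numbers counting alone gives an error of 28.9% in saline and 33.1% in LNA29 livers, against an observed coefficient of variation of 50.6% in saline livers. Irs1, with the only match followed by an A, thus had a 95% interval from 0.583-fold to 1.90-fold.

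Irs2, a FoxO target, was the most variable of the 8 genes. In saline livers its value was 578 in replicate 43, 520 in replicate 49, 143 in replicate 45, 131 in replicate 51 and 39.2 in replicate 53. Replicate 47 had no reads for Irs2 among 12337049, which allows a value of up to 52.6 (3 reads, counting error only). The LNA29 livers lay between 18.9 and 400 with a median of 226, on 1 to 32 reads. Both groups thus held livers with hardly any Irs2, namely saline replicates 47 and 53 and LNA29 replicate 48. The arithmetic mean was lower in LNA29 livers, 205 ± 129 against 235 ± 250 (SD, n = 6 each). On the log2(value + 1) scale the mean was higher in LNA29 livers by 0.77 (standard error 1.09, limma adjusted p = 0.923, exact permutation p = 0.632). This sign depends on the liver without reads, which the authors set to 1. With that liver set to 3 reads, an alternative chosen after the data were seen, the difference was -0.019, and without that liver it was -0.32. The direction of Irs2 was therefore not determined, with a 95% interval from 0.350-fold to 8.33-fold.

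Pik3r1 (Entrez 18708, chr13:101680563-101768217, minus strand) encodes the regulatory subunit that holds the catalytic subunit of PI3K and docks it on IRS proteins. Its values were 649 to 2690 in saline livers (median 1355, 37 to 269 reads) and 491 to 2075 in LNA29 livers (median 1392, 26 to 166 reads). The highest saline livers were again replicates 49 and 43, and the highest LNA29 liver was replicate 44, as for Insr and Irs2. The lowest liver of all was LNA29 replicate 48. The means were 1444 ± 775 and 1303 ± 540, a log2 difference of -0.097 (standard error 0.36, limma adjusted p = 0.976, exact permutation p = 0.831) and a 95% interval from 0.556-fold to 1.57-fold. The coefficient of variation in saline livers, 53.7%, was well above the counting error of 10.9%. Its direction was not determined either, since the difference was 0.16 without LNA29 replicate 48 and -0.29 without saline replicate 47.

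Akt1 (Entrez 11651, chr12:112653821-112674884, minus strand) and Akt2 (Entrez 11652, chr7:27591552-27640826, plus strand) encode the kinases at the centre of the pathway, of which Akt2 is the main form in insulin-responsive tissues. Akt1 was the most even of the 8 genes. It lay between 1820 and 2789 in saline livers (median 2433, 131 to 249 reads) and between 1982 and 2390 in LNA29 livers (median 2157, 98 to 173 reads). The LNA29 livers all fell inside the saline range, and their coefficient of variation of 6.42% was no larger than the counting error of 9.05%. Both extremes were saline livers, with replicate 49 lowest and replicate 47 highest, whereas Insr and Pik3r1 were highest in replicate 49 and below their saline medians in replicate 47. The log2 difference was -0.11 (standard error 0.13, limma adjusted p = 0.897, exact permutation p = 0.299), and the 95% interval ran from 0.765-fold to 1.12-fold.

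Akt2 lay between 1649 and 2670 in saline livers (median 2354, 94 to 267 reads) and between 1792 and 2732 in LNA29 livers (median 2460, 95 to 195 reads). The lowest livers were saline replicate 47 and LNA29 replicate 48, and a single LNA29 liver, replicate 46, lay above all saline livers. The log2 difference was 0.071 (standard error 0.15, limma adjusted p = 0.950, exact permutation p = 0.602) with a 95% interval from 0.844-fold to 1.31-fold. For both kinases the interval lay inside a change of 1.5 times in either direction. The same was so for Foxo1, and for none of the other 5 genes.

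Foxo1 (Entrez 56458, chr3:52268336-52353221, plus strand) encodes the FoxO factor that drives glucose production in the fasted liver, and Foxo3 (Entrez 56484, chr10:42181841-42276755, minus strand) a close relative with overlapping targets. Foxo1 had a mean of 966 ± 337 in saline and 978 ± 236 in LNA29 livers (SD, n = 6 each). The log2 difference was 0.063 (standard error 0.24, limma adjusted p = 0.978, exact permutation p = 0.797). Saline replicates 49, 51 and 53 were between 1232 and 1280, replicate 47 was at 877, and replicates 43 and 45 were at 562.5 and 587, on 36 to 128 reads. LNA29 livers ran from 625 to 1301 around a median of 962, on 35 to 95 reads. The 95% interval ran from 0.733-fold to 1.49-fold.

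Foxo3 was one of the 3 genes of the set with the lowest levels. Its values were 52.6 to 235 in saline livers (median 138, 3 to 24 reads) and 73.2 to 260 in LNA29 livers (median 183, 3 to 19 reads). LNA29 replicate 54 was highest and saline replicate 47 lowest, and the groups overlapped over most of their range. The mean was 147 ± 71.0 in saline and 179 ± 65.0 in LNA29 livers, a log2 difference of 0.35 (standard error 0.40, limma adjusted p = 0.890, exact permutation p = 0.416). Counting alone gives an error of 36.0% in saline and 35.8% in LNA29 livers, against coefficients of variation of 48.4% and 36.2%. The 95% interval ran from 0.714-fold to 2.28-fold.

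**Figure D2:**
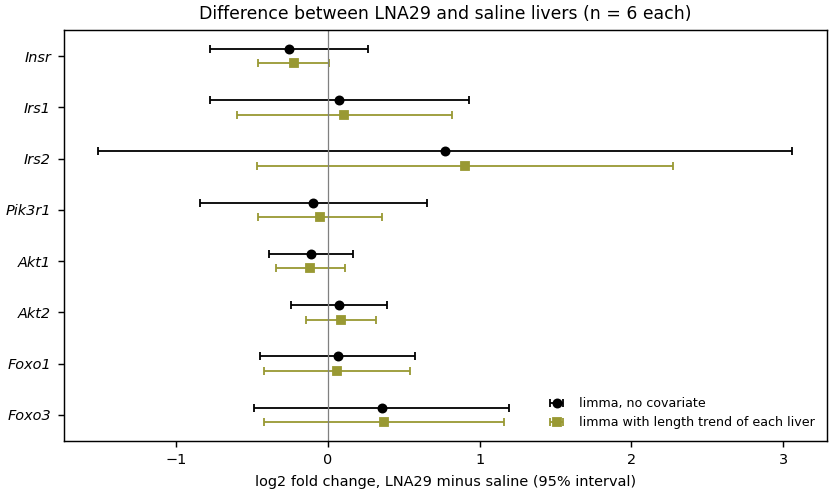
Log2 difference between LNA29 and saline livers (horizontal axis, n = 6 each) for each gene, with bars for the 95% interval from limma without a covariate (black circles) and with the transcript length trend of each liver as a covariate (green squares). All 16 intervals include 0, and the interval of Irs2 is the widest. Each of the 8 genes has a narrower interval with the covariate, and the narrowing is largest for Insr, Irs2 and Pik3r1.

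Of the 4 genes with a TGGTGCT match, 3 had a higher mean in LNA29 livers (Irs1, Foxo1 and Foxo3, log2 differences 0.075, 0.063 and 0.35), and Pik3r1 had a lower one. Of the 4 genes without a match, Irs2 and Akt2 were higher and Insr and Akt1 lower. None of these differences passed the test, and the direction of Irs1, Irs2, Pik3r1, Akt2 and Foxo1 turned with the omission of at least 1 liver.

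Within a liver, levels of different genes were compared per kilobase of the longest annotated transcript, since a longer transcript gives more fragments. On this scale, over all 12 livers, Akt1 was highest with 835 ± 99.0 and Akt2 next with 509 ± 74.5 (SD, n = 12). Insr followed with 229 ± 91.8, Pik3r1 with 193 ± 90.1 and Foxo1 with 112 ± 32.0. Irs2 at 34.8 ± 30.1, Foxo3 at 23.8 ± 9.80 and Irs1 at 23.1 ± 11.1 were the lowest. Per kilobase, Akt1 was above Akt2, and Akt2 above Insr, in 12 of 12 livers. Before division by length, the means of Akt1, Akt2 and Insr were 2340, 2257 and 2399 in saline livers. In LNA29 livers they were 2152, 2365 and 1880, so this order in every liver depends on the annotated lengths. Insr was above Pik3r1 in 10 livers, Pik3r1 above Foxo1 in 8 and Foxo1 above Irs2 in 11. Irs2 was above Foxo3 in 6 of 12 livers and Foxo3 above Irs1 in 6 of 12, so these 3 had no order beyond their spread. These levels assume the longest transcript, and a liver that uses a shorter form would have a higher level per kilobase.

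Ratios between partners within a liver remove only what the partners share, such as the scaling of the library. The trend with transcript length described below was not shared by Akt2 and Akt1 (Pearson's r = 0.76 and -0.53). It was not removed from the ratios. The log2 ratio of Akt2 to Akt1 was -0.056 ± 0.44 in saline and 0.13 ± 0.22 in LNA29 livers (SD, n = 6 each), a difference of 0.18 (exact permutation p = 0.405). For Irs2 to Irs1 the difference was 0.70 (exact permutation p = 0.597), with saline replicate 47 at the low extreme. For Foxo3 to Foxo1 it was 0.29 (exact permutation p = 0.459). Pik3r1 was also set against the summed values of the catalytic subunit genes Pik3ca and Pik3cb, because an excess of p85α is known to oppose PI3K. The log2 ratio was 1.24 ± 0.83 in saline and 0.74 ± 0.69 in LNA29 livers, a difference of -0.51 (exact permutation p = 0.273). All 4 ratios had a Benjamini-Hochberg adjusted p of 0.597 (exact permutation tests), so no difference in mean was detected for any of them.

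The spread of these genes between livers had a pattern of its own. In each liver, the departure of 12217 genes from their mean over the 12 livers was correlated with the length of their longest transcript. This length trend ranged from -0.282 in saline replicate 47 to 0.470 in saline replicate 49 (Spearman's rho across genes, which are not independent replicates). In LNA29 livers it ranged from -0.229 in replicate 48 to 0.241 in replicate 44. The means of the 2 groups were close, 0.012 in saline and -0.0033 in LNA29 livers. Their medians were farther apart, -0.083 in saline and 0.017 in LNA29 livers. A positive trend means that long transcripts were high in that liver.

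The log2 values of Insr followed this trend over the 12 livers with Pearson's r = 0.93 (permutation p = 2e-05) and Spearman's rho = 0.867 (permutation p = 0.00054). Pik3r1 did so with r = 0.87 (permutation p = 0.00026) and rho = 0.874 (permutation p = 0.00052). For Irs2, r was 0.80 (permutation p = 0.0019) and rho was 0.965, with a permutation p of 1e-05, the smallest that 100000 permutations can give. Akt2 had r = 0.76 (permutation p = 0.00455) and rho = 0.881 (permutation p = 0.00039). In all 4 genes the relation held without saline replicates 43 and 49, the livers farthest from the median, with r = 0.82 for Insr, 0.81 for Pik3r1, 0.83 for Irs2 and 0.81 for Akt2 (n = 10). It also held within each group, with r from 0.81 to 0.97 in the 6 saline livers and from 0.75 to 0.93 in the 6 LNA29 livers.

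The other 4 genes were less close to the trend or not close at all. Irs1 had r = 0.62 (permutation p = 0.0325) and rho = 0.587 (permutation p = 0.0499), and r = 0.57 without saline replicates 43 and 49. Foxo3 had r = 0.34 (permutation p = 0.289) and rho = 0.322 (permutation p = 0.311), and Foxo1 had r = -0.19 (permutation p = 0.553) and rho = -0.056 (permutation p = 0.87). Akt1 went the other way, with r = -0.53 (permutation p = 0.0777) and rho = -0.434 (permutation p = 0.161). Without the same 2 livers r was 0.34 for Foxo3, -0.38 for Foxo1 and -0.54 for Akt1.

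These 8 relations were computed as a family, and they are set here against the whole table, in which such relations were not rare. An r at least that of the gene was reached by 0.497% of the tested genes for Insr, 2.47% for Pik3r1, 5.32% for Irs2, 7.72% for Akt2 and 16.9% for Irs1. Length alone did not sort the 8 genes. The transcripts of Insr, Irs1 and Foxo1 have 9355, 9144 and 8665 bases, yet Insr followed the trend and Foxo1 did not, while Akt2, with 4544 bases, did. Akt1 has the shortest transcript, with 2690 bases.

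**Figure D3:**
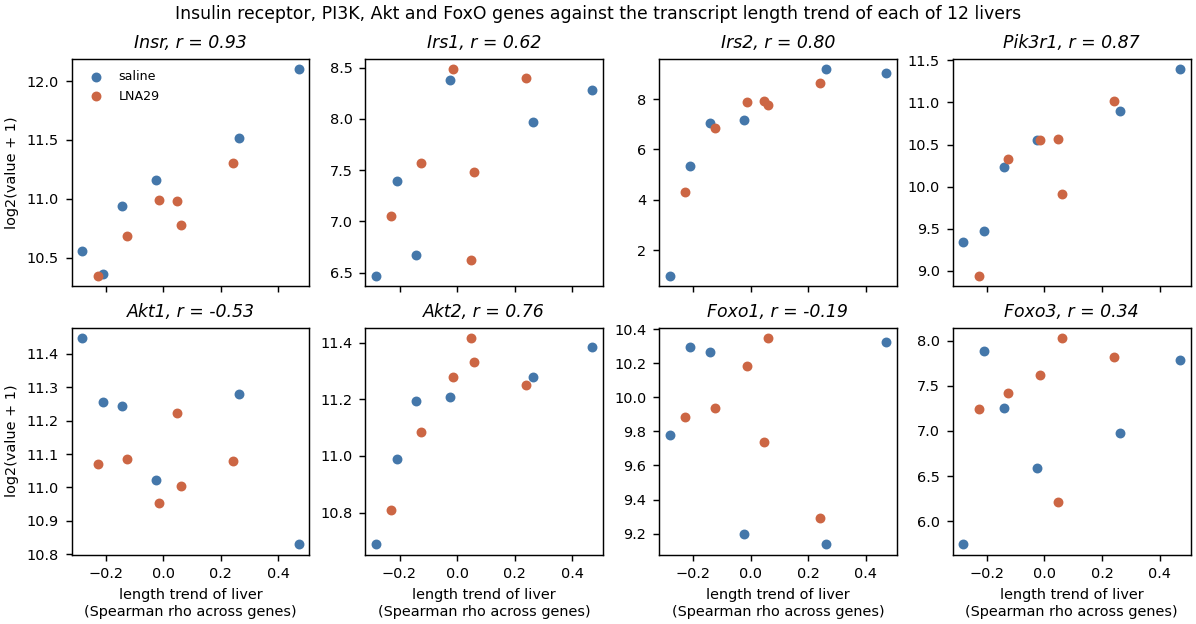
Level of each gene, as log2(value + 1), against the length trend of each liver (horizontal axis, Spearman's rho between transcript length and departure from the mean across genes), with saline livers in blue and LNA29 livers in red. Insr, Pik3r1, Irs2 and Akt2 lie along a rising line with both groups on it (r = 0.93, 0.87, 0.80 and 0.76), and Foxo1 does not (r = -0.19).

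With the length trend of each liver as a covariate in limma, the standard error fell from 0.25 to 0.11 for Insr, from 0.36 to 0.19 for Pik3r1 and from 1.09 to 0.65 for Irs2. For Insr the log2 difference was then -0.23 with a 95% interval from -0.46 to 0.0067 (limma adjusted p = 0.427). For Pik3r1 the difference was -0.054 (limma adjusted p = 0.944) and for Irs2 it was 0.90 (limma adjusted p = 0.624). The log2 differences of the remaining 5 genes moved little, with limma adjusted p-values from 0.718 for Akt1 to 0.949 for Foxo1. Their standard errors also fell, but by less, for example from 0.15 to 0.11 for Akt2. What makes livers differ in this trend was not tested. The liver with the highest trend, saline replicate 49, was also the one with the lowest share of albumin reads.

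After the mean of its group was subtracted, each gene was correlated with every other tested gene of mean at least 100 over the 12 livers. Pairs within the set were led by Insr with Pik3r1 and by Irs2 with Akt2, both with Pearson's r = 0.93. Saline replicate 47, without reads for Irs2, was also the lowest liver for Akt2, and Pearson's r is sensitive to such a liver. No rank correlation was computed for pairs within the set. Irs2 with Pik3r1 followed at 0.86 and Pik3r1 with Akt2 at 0.84. Foxo1 correlated with no other gene of the set above 0.45, its value with Foxo3. Akt1 was negative with all 7 others, down to -0.72 with Irs1.

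Outside the set, the gene most like Insr was Qk, an RNA-binding protein gene (r = 0.98, n = 12). For Pik3r1 it was Phf2, a histone demethylase gene (0.98), for Irs2 it was Enpep, an aminopeptidase gene (0.98), and for Akt2 it was Vps26b, a retromer subunit gene (0.97). Spearman's rho was 0.98 for Insr with Qk, 0.97 for Pik3r1 with Phf2, 0.92 for Irs2 with Enpep and 0.83 for Akt2 with Vps26b. These 4 genes had many equals, with between 621 and 680 of 8990 genes at r of at least 0.8. For Akt1 the most alike was Shmt2, a mitochondrial serine hydroxymethyltransferase gene (0.94), for Foxo3 it was Slc15a3, a peptide transporter gene (0.92), for Irs1 it was Atp6v1c1, a proton pump subunit gene (0.89), and for Foxo1 it was Eif5b, a translation factor gene (0.89). Only between 14 and 57 genes were that close to these 4. The points of each correlation share library, depth and length trend, and the values are given as a description.

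The rest of the pathway was taken from 7 lists of known genes. In none of these lists did a gene have an adjusted p under 0.05 in limma without a covariate, and in none did a gene separate the 2 groups without overlap (background 0.16% and 0.985%). Unadjusted p-values under 0.05 were found for 2 genes higher and 6 lower in LNA29 livers, out of 79 list entries tested, against a background of 1.95% and 5.97%.

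Of 12 other receptors and adaptors, 10 were tested, 5 with a higher and 5 with a lower mean, with a median log2 difference of -0.012 (0.033 with a common median of all livers). The smallest unadjusted p was that of Sh2b1, an adaptor that enhances receptor signalling, with 1805 ± 273 in saline and 1545 ± 349 in LNA29 livers (log2 difference -0.24, limma adjusted p = 0.793). Next were Irs3, an adaptor related to Irs1 and present at 20.9 and 8.87, Sh2b2 (log2 difference -0.98) and Grb10, an adaptor that restrains the receptor (0.80), all with few reads. Grb14 and Shc1, with saline means of 1362 and 1399, differed by 0.015 and 0.0066. The receptor gene Insrr and the adaptor gene Irs4 were below the filter.

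All 8 other PI3K subunits were tested, 2 with a higher and 6 with a lower mean, with a median of -0.31. This median depended on subunits with few reads. It was -0.0053 when only genes with a mean of at least 100 were kept, -0.056 in edgeR and -0.077 in DESeq2. The subunits higher in LNA29 livers were the catalytic subunits Pik3ca and Pik3cb. Pik3cd, which encodes p110δ of the same class, had 173 ± 19.3 in saline and 161 ± 74.4 in LNA29 livers. Pik3cb, which encodes p110β, had 93.1 ± 47.3 in saline and 168 ± 36.5 in LNA29 livers, a log2 difference of 1.07 (unadjusted limma p = 0.0270, limma adjusted p = 0.529, exact permutation p = 0.00866). It was measured on 1 to 13 reads in saline and 6 to 15 reads in LNA29 livers, and the groups overlapped. Pik3ca, which encodes p110α, had 448 ± 56.8 and 549 ± 77.8, a log2 difference of 0.29 (limma adjusted p = 0.755, exact permutation p = 0.0368). Pik3r5 and Pik3r6, regulatory subunits of the leukocyte form, had log2 differences of -0.39 and -1.40 (limma adjusted p = 0.828 and 0.823). The second rests on 0 to 3 reads in saline and 0 to 4 reads in LNA29 livers and depends on the value of 1 given to a liver without reads. Neither catalytic subunit passed the adjustment.

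Among 16 kinases and regulators around Akt and mTOR, 6 had a higher and 10 a lower mean, with a median of -0.10. Mapkap1, a subunit of the mTORC2 complex that phosphorylates Akt, had 931 ± 113 in saline and 714 ± 180 in LNA29 livers, a log2 difference of -0.41 (limma adjusted p = 0.590, exact permutation p = 0.0325). Tsc2, an mTORC1 inhibitor that Akt phosphorylates, had 1614 ± 370 and 1239 ± 149, a log2 difference of -0.36 (limma adjusted p = 0.621, exact permutation p = 0.0606). Mlst8, a subunit shared by both mTOR complexes, differed by -0.50 (limma adjusted p = 0.707, exact permutation p = 0.0498). Sgk1, a kinase related to Akt, had 770 ± 377 and 1054 ± 397, a log2 difference of 0.52 (limma adjusted p = 0.726, exact permutation p = 0.162). The genes of the Akt substrate GSK3, Gsk3a and Gsk3b, differed by 0.034 and -0.13.

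Of 12 genes that brake the pathway, 11 were tested, 6 with a higher and 5 with a lower mean and a median of 0.0024. Ptpn1, the phosphatase that acts on the receptor, differed by 0.090. The smallest unadjusted p-values were those of Inpp5d, a lipid phosphatase of blood cells (0.50), Phlpp1, an Akt phosphatase (-0.40), and Trib3, an Akt inhibitor (-0.47), with limma adjusted p-values from 0.807 to 0.809.

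Of 8 other FoxO genes and cofactors, 7 were tested, 5 with a higher and 2 with a lower mean and a median of 0.11. Foxo4 had 754 ± 146 in saline and 730 ± 177 in LNA29 livers, a log2 difference of -0.050 (limma adjusted p = 0.979), and Foxo6 was below the filter. Sirt1, a deacetylase that acts on FoxO proteins, had 42.1 ± 43.3 and 57.8 ± 13.8, a log2 difference of 1.25 (limma adjusted p = 0.747). It was measured on 0 to 12 reads in saline and 2 to 5 reads in LNA29 livers, so this log2 difference depends on the value of 1 given to a liver without reads. The 14-3-3 genes Ywhae, Ywhaz and Ywhab, whose proteins hold phosphorylated FoxO outside the nucleus, differed by 0.19, 0.15 and 0.11 (limma adjusted p = 0.795, 0.857 and 0.902).

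All 20 genes known to be switched on by FoxO factors were tested, 14 with a higher and 6 with a lower mean in LNA29 livers, with a median log2 difference of 0.12. Bnip3, a mitophagy receptor gene, had the smallest p, with 2771 ± 355 in saline and 3656 ± 811 in LNA29 livers (log2 difference 0.38, limma adjusted p = 0.574, exact permutation p = 0.0498). Pdk4, which restrains glucose oxidation in fasting, had 393 ± 204 and 609 ± 288 (0.62, limma adjusted p = 0.734). Igfbp1, a secreted binding protein that insulin represses, had 9790 ± 7872 and 18464 ± 16025 (0.74, limma adjusted p = 0.793). Pnpla2, the adipose triglyceride lipase gene, differed by 0.29 (limma adjusted p = 0.775). The glucose production genes G6pc and Pck1 differed by 0.11 and 0.13 (limma adjusted p = 0.967 and 0.946), and Ppargc1a, a coactivator of both, by -0.14. Cat and Sod2 were also among the 6 genes with a lower mean, with differences of -0.33 and -0.18 (limma adjusted p = 0.823 for each).

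Of 8 genes that insulin induces in liver, 7 were tested and all 7 had a lower mean in LNA29 livers, with a median log2 difference of -0.79. Most of these are genes of fatty acid synthesis, which the study itself picked out from the same livers, so their direction is not independent evidence. Scd1, a fatty acid desaturase gene, had 16585 ± 9841 in saline and 5602 ± 1979 in LNA29 livers, a log2 difference of -1.43 (limma adjusted p = 0.138, exact permutation p = 0.0108). Srebf1, the transcription factor gene through which insulin drives fatty acid synthesis, had 1342 ± 614 and 659 ± 282, a difference of -0.99 (limma adjusted p = 0.270, exact permutation p = 0.0238). Fasn and Acaca, enzymes of the same route, differed by -0.79 and -0.61 (limma adjusted p = 0.261 and 0.265). Scd1 had a limma adjusted p of 0.0071 with the length trend as a covariate and an adjusted p of 0.00556 in DESeq2.

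**Figure D4:**
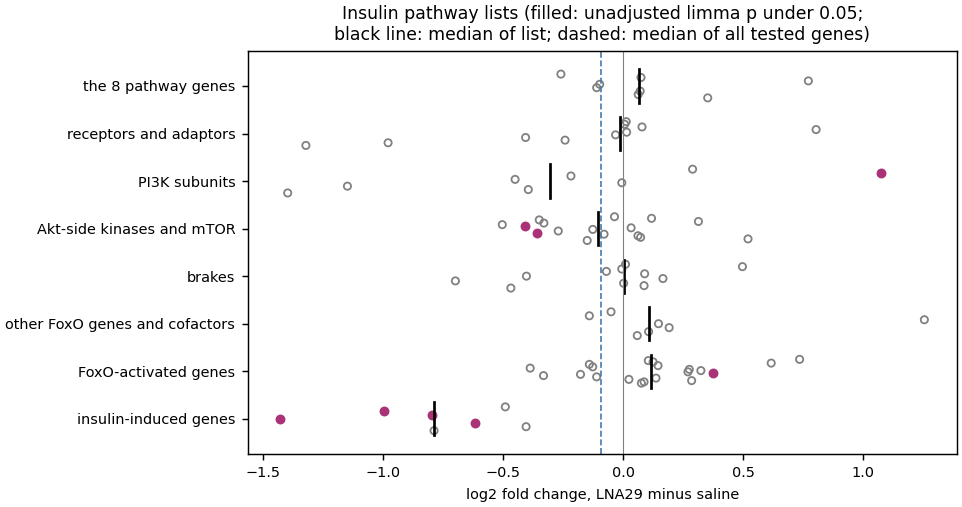
Log2 difference between LNA29 and saline livers (horizontal axis) of each tested gene, for the 8 pathway genes and 7 lists of the pathway, with filled points for an unadjusted limma p under 0.05, black lines for list medians and a dashed line for the median of all tested genes (-0.093). No point has an adjusted p under 0.05 in limma without a covariate, and the insulin-induced genes, with a median of -0.79, are the only list with all its points below 0.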

How the data were processed

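Polyadenylated liver RNA of 6 saline-treated and 6 LNA29-treated mice was sequenced as single reads of 100 bases. The authors mapped reads with MapSplice2 and assigned them with RSEM, on mm9 per the submitters' processing notes (versions not given in the sources used here). The authors deposited a signal value per gene and liver, the reads divided by the upper quartile of genes with reads and multiplied by 1000, with 1 for a gene without reads. This scaling sets levels relative to other genes. Their group means, fold changes and p-values were not used, nor were 2 unnamed columns of numbers.

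log2(value + 1) was compared with limma 3.58.1 (R 4.3.3, trend) for 12486 genes whose mean reached 10, with Benjamini-Hochberg adjustment over all of them and a threshold of 0.05. Single genes and ratios were also tested by two-sided exact permutation over the 924 divisions of 12 livers (smallest possible p 0.00216). Between 92.2% and 93.9% of values in a liver were whole multiples (within 0.02) of 1 read, and the recovered reads went into edgeR 4.0.16 and DESeq2 1.42.0 as alternatives. Counting errors and floors cover counting only, since reads are not independent molecules.

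Lengths (97.8% of tested genes) and 3′ UTRs (90.4% of all genes) came from GENCODE M21 (GRCm38), not the build of the deposited values. The 8 genes and the lists were chosen with earlier results of these data known. The text names all 8, up to 4 genes per list by smallest limma p, and the 1 gene most like each of the 8. Other list genes were named for their role after their values were seen. Some list genes are counted but not reported singly here. Alternatives were pseudocounts of 0.1 and 10, no filter or a mean of 100, a common median, array weights, omission of values beyond 1.5 SD or of each liver, and the length trend as a covariate. On simulated reads with 200 of 12486 genes changed, limma called 174 (171 of them changed), edgeR 185 (182) and DESeq2 203 (187). The changed genes were drawn only from genes with many reads and given large changes, and the simulated livers had no length trend. These counts therefore do not give the sensitivity for genes with few reads or for small differences such as those of the 8 genes. Other steps used Python 3.11.15, numpy 2.4.6, scipy 1.17.1 and pandas 2.3.3.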

Additional observations from a re-analysis of the deposited data

How the results depend on the processing

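No alternative fit gave any of the 8 genes an adjusted p under 0.05 (limma, edgeR or DESeq2, smallest 0.311), among 177 results over genes and settings. These 177 include Irs2 with the liver without reads set to 3 reads, for which only an exact permutation test was run. Exact permutation tests were not run with edgeR, DESeq2, array weights or the length trend as a covariate. In the other settings an exact permutation p under 0.05 was found in 2 fits, both for Akt1. The exact permutation p was 0.0317 with values beyond 1.5 SD left out (log2 difference -0.21) and 0.0411 without saline replicate 49 (-0.18). Leaving out values beyond 1.5 SD narrows the spread within a group. The sign of Irs2 turned to -0.098 with edgeR and -0.13 with DESeq2, for which the cause was not tested, and to -0.019 when only the liver without reads was set to 3 reads. The sign of Pik3r1 turned to 0.17 with array weights and 0.37 with values beyond 1.5 SD left out, and that of its ratio to Pik3ca and Pik3cb to 0.16 with the latter. The cause of these was not tested. With 1 liver left out at a time, the log2 differences ran from -0.41 to -0.060 for Insr, -0.14 to 0.27 for Irs1, -0.32 to 1.36 for Irs2, -0.29 to 0.16 for Pik3r1, -0.18 to -0.057 for Akt1, -0.016 to 0.15 for Akt2, -0.076 to 0.18 for Foxo1 and 0.094 to 0.59 for Foxo3, and from -0.18 to 1.17 for the ratio of Irs2 to Irs1. In limma 20 of all tested genes were called, a count that was 10 with a common median, 58 with array weights, 72 with DESeq2, 217 with values beyond 1.5 SD left out, 124 with the length trend as a covariate, and between 1 and 29 without single livers. Counting only matches followed by an A left 1 of the 8 genes with a match. Irs1, Irs2 and Foxo3 had few reads, at medians of 10 to 16.5 per group, so counting alone gives them errors of 28.9% to 49.7%. No paired analysis was run, because the groups share no replicate numbers and the labels state no pairing of livers.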
